A study of Mus musculus with 10 samples.

Results

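The immediate early genes described here are 10 of the 32285 genes in the count tables, chosen by symbol: Fos, Fosb, Jun, Junb and Jund, the AP-1 subunits. To these were added Egr1, a zinc finger transcription factor, Atf3, a stress-induced bZIP factor, Ier2, an early response nuclear protein, Zfp36, which encodes tristetraprolin, and Dusp1, a dual-specificity phosphatase. All 10 had a row in every library. The study dissected the sensory epithelia of the cochlea (hearing) and of the vestibule (balance) from wild-type CBA/J mice of 22 months, both sexes, with no drug or transgene in either group. Epithelia from several mice were pooled for each replicate, digested with collagenase IV at room temperature and triturated before single-cell capture with the 10x Genomics 3′ chemistry. The 10 libraries were 5 of the cochlea and 5 of the vestibule. Libraries 1 and 2 of each organ shared 1313 barcodes in the cochlea and 1633 in the vestibule and differed by less than the sampling noise, so each pair was counted as 1 sample and n was 4 per organ, replicates 1, 3, 4 and 5. Other pairs of libraries shared at most 41 barcodes.

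Immediate early genes are transcribed within minutes of a stimulus, from promoters on which serum response factor, its ternary complex partners and CREB are already poised, and need no new protein. Fos and Jun proteins dimerise to form AP-1. Dusp1 removes phosphate from MAP kinases, and Zfp36 binds AU-rich elements in 3′ untranslated regions and speeds decay of the mRNA, so that both act as brakes on the response. The same genes are known to be induced when tissue is digested to single cells, so their level in a droplet library joins the state in the animal and the handling after dissection. No unhandled sample was analysed here, and these sources cannot be told apart in any value below. HCs are the mechanosensory cells of both organs, and supporting cells surround them in the same epithelium.

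Promoter windows, 250 bases before to 50 after the start that RefSeq gives, were matched in RefSeq (GRCm38.p6) for 8 of the 10 genes. The window holds the core TGACG of the cAMP response element, on either strand, in 5 of the 8 (Atf3, Dusp1, Fos, Fosb and Junb), and in 20.8% of 32851 promoters. The full palindrome TGACGTCA, which overlaps the core, was in Dusp1 alone of the 8 and in 1.79% of all promoters. A CArG box, the site bound by serum response factor, was in Zfp36 alone of the 8 and in 1.63% of all. The AP-1 site TGANTCA was in 0 of the 8 and in 7.81% of all, and TATAAA was in 2 of the 8, Fos and Junb, and in 13.6%. A match gives letters in this window and no evidence of binding. 4 of the windows that hold a match are shown, with the letters of the core, the palindrome or the CArG box in capitals. They were not picked by the differences described below. The windows of Jun, which passed in several comparisons below, and of Jund held none of these elements. The Jund window, chr8:70697489-70697788, follows the RefSeq start and ends before the GENCODE M21 start at 70698949, where no window was searched.
Fos, chr12:85473640-85473939, plus strand, core at -129 and -66: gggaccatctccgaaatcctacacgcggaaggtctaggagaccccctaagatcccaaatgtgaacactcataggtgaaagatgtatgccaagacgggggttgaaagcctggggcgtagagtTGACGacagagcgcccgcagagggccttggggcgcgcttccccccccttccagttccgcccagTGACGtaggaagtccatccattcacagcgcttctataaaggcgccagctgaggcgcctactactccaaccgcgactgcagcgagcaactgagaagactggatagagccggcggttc
Junb, chr8:84978699-84978998, minus strand, core at -106: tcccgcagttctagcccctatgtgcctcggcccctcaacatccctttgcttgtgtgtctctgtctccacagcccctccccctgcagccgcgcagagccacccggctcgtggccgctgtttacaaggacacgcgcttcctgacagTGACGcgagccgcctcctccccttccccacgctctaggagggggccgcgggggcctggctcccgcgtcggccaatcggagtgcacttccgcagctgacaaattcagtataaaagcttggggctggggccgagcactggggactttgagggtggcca
Dusp1, chr17:26508423-26508722, minus strand, core at -191, -143 and -140 with the palindrome at -143: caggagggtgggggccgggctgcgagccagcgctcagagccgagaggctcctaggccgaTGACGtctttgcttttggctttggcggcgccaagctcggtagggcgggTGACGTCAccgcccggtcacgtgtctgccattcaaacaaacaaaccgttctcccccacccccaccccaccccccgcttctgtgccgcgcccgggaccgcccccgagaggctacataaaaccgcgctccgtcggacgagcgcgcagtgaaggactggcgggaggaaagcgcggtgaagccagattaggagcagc
Zfp36, chr7:28379179-28379478, minus strand, CArG box at -58: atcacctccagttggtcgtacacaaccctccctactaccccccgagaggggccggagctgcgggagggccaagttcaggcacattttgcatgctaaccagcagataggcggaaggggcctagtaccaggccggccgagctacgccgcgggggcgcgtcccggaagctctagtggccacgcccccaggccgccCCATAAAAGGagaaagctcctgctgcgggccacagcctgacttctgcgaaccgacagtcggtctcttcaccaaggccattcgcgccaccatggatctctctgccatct

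AU-rich elements, through which Zfp36 acts, were looked for in the 3′ untranslated regions of the same assembly (GRCm38, GENCODE M21). The nonamer TTATTTATT occurred in 3 of the 10 members, once in Fos and Zfp36 and 2 times in Dusp1, and in 7.66% of 21005 genes. Among genes whose untranslated region was of like length the share was 4.38% for Fos, 4.12% for Zfp36 and 3.71% for Dusp1. The first element of each is given with its flanks, the nonamer in capitals.
Fos, chr12:85477107-85477127, plus strand: ttcaatTTATTTATTaagatg
Zfp36, chr7:28376955-28376975, minus strand: acgactTTATTTATTgtatta
Dusp1, chr17:26506163-26506183, minus strand: tggtccTTATTTATTtaacac

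Values are unique molecular identifier (UMI) counts of a gene scaled to the summed UMIs of the same cells in the same library, as CPM, each given as mean ± SD over libraries. Cells were kept with at least 1000 UMIs and under 25% mitochondrial UMIs. The libraries used held 2738036 to 26974948 UMIs in the cochlea and 4150642 to 24104850 in the vestibule before this filter. The kept cells numbered 571 to 5070 per library in the cochlea and 867 to 5438 in the vestibule, and their median UMI count was 1889 to 3298 and 2102 to 2584. The 3′ counts of different genes are not compared here, since a 3′ count does not give a level per length. HCs numbered 229 in the cochlea and 2007 in the vestibule, supporting-like cells 1973 and 553, and macrophage-like cells 444 and 366, named from markers in clusters made without the members. Intervals from counting cover counting error only.

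The Cochlea replicate 4 library stood apart. Over all its kept cells, the 9 members other than Jund summed to 2534 CPM, against 716, 624 and 685 CPM in Cochlea replicates 1, 3 and 5. The 4 vestibular libraries gave 219, 231, 340 and 343 CPM. Fos was 5.12 times the mean of the other 3 cochlear libraries, Ier2 4.75, Junb 4.43, Jun 4.08, Egr1 3.87, Fosb 3.15 and Jund 2.38. The excess was smaller in Dusp1 (1.47 times) and Zfp36 (1.40 times), and Atf3 was at 0.811 times the mean of the others, with 13.3 CPM against 23.3, 19.1 and 6.68 CPM. The library also had the highest median UMI count (3298) and the lowest mitochondrial share (2.81%) of the 4 cochlear libraries, and the part these played was not tested. Vestibule replicate 4, whose mitochondrial share was 3.00%, was highest of its organ in 7 of the 12 classes it held, and Cochlea replicate 4 in 4 of its 6 classes. Results that rest on Cochlea replicate 4 are therefore given with and without it.

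**Figure D1:**
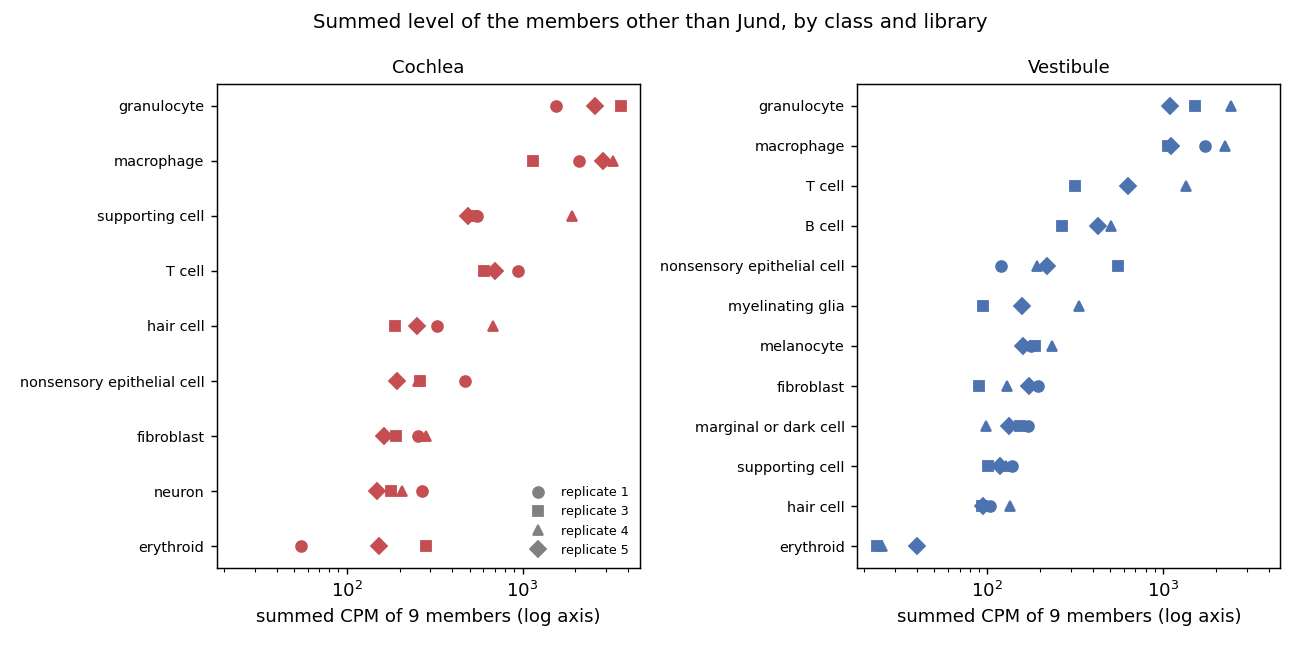
Summed CPM of the 9 members other than Jund (x axis, log scale) for the named cell classes (y axis) and each library, cochlea on the left and vestibule on the right, with 1 symbol per replicate. Granulocyte-like and macrophage-like cells lie above 1000 CPM in both organs, and cochlear supporting-like cells reach 1904 CPM in replicate 4 against 493 to 551 CPM in the others.

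The order of the named classes was led by innate immune cells in both organs. Clusters left unnamed, of up to 671 cells in the cochlea and 953 in the vestibule, were not part of these orders. Granulocyte-like cells held 2584 ± 1042 CPM of the 9 members in the cochlea (n = 3) and 1693 ± 686 CPM in the vestibule (n = 3), and macrophage-like cells 2349 ± 932 and 1540 ± 562 CPM (n = 4 each). Cochlea replicates 1 and 5 held only 10 granulocyte-like cells each, against 233 in replicate 3. The range of the libraries of these 2 classes overlapped in each organ. Cochlear supporting-like cells came next with 867 ± 692 CPM, then T cell-like cells (749), HCs (362), nonsensory epithelial-like cells (296), fibroblast-like cells (223), neuron-like cells (201) and erythroid-like cells (164). In the vestibule the order went on with T cell-like (768), B cell-like (401), nonsensory epithelial-like (272), glia-like (196), melanocyte-like (190), fibroblast-like (148), marginal or dark cell-like (140) and supporting-like cells (122), with HCs at 107 and erythroid-like cells at 29.7 CPM. The libraries of neighbouring classes in these orders overlapped throughout, except between vestibular HCs and erythroid-like cells. Without replicate 4 the cochlear supporting-like cells averaged 522 CPM and fell below the T cell-like cells. The cHCs then averaged 256 CPM and fell below the cochlear nonsensory epithelial-like cells, at 309 CPM. An unnamed cochlear cluster of 220 cells, led by Otor, Corin and Notum and of 11820 median UMIs, held 1510 CPM in replicate 3 and 5799 CPM in replicate 4. The macrophage-like cells of replicate 4 held 3280 CPM.

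The first question was whether cHCs and vHCs differ. cHCs had higher levels of Jun, Junb, Ier2 and Dusp1 than vHCs, while Jund and Egr1 did not pass the test. In edgeR's quasi-likelihood test on summed counts with Benjamini-Hochberg adjustment over all genes, 4 of the 6 members tested rose and 0 fell, against 35.9% of all genes called in either direction, 16.8% higher and 19.2% lower. Fos, Fosb, Atf3 and Zfp36 were too low to be tested. Ier2 and Dusp1 reached the count minimum of edgeR's filter (10 counts at the median library size) in 4 of 4 cochlear and 0 of 4 vestibular libraries, so that they could enter the test only where they were high, and their values are a description. Jun, Junb, Jund and Egr1 reached it in at least 3 libraries of each organ, and of these Jun and Junb passed. Without replicate 4 of either organ the same 4 of 6 members passed, against 30.1% of all genes.

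Ier2 was 41.4, 12.2, 113 and 67.3 CPM in Cochlea replicates 1, 3, 4 and 5. In the vestibule it was 6.06, 3.68, 4.17 and 7.11 CPM. The groups did not overlap, and the lowest cHC library stood above the highest vHC library. Over all genes tested in HCs 34.7% did not overlap between organs, 14.4% with the cochlea higher. The log2 fold change, cochlea minus vestibule, was 3.38 ± 0.54 (standard error, taken as the size of the log2 fold change over the square root of edgeR's F). Without replicate 4 of either organ it was 2.74.

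Jun was 96.7, 101, 292 and 86.5 CPM in the cochlear libraries and 27.9, 27.3, 36.3 and 36.2 CPM in the vestibular ones. Replicate 4 was high in the cochlea, and the other 3 libraries were within a narrow range that still lay above all vHC libraries. The log2 fold change was 2.16 ± 0.33 (edgeR adjusted p = 5.7e-05) and 1.66 without replicate 4 of either organ. Junb was 47.0, 34.4, 137 and 25.6 CPM against 18.2, 16.5, 23.2 and 7.82 CPM, so that the lowest cHC library was close to the highest vHC library. Its log2 fold change was 1.79 ± 0.43 (edgeR adjusted p = 0.0031) and 1.33 without replicate 4 (adjusted p = 0.012).

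Dusp1, the phosphatase that turns MAP kinases off, was 44.2, 13.3, 30.9 and 16.01 CPM in cHCs and 6.06, 6.14, 4.17 and 4.26 CPM in vHCs. Cochlea replicate 1, not 4, was highest, and the groups did not overlap. The log2 fold change was 2.18 ± 0.40 and 1.97 without replicate 4 of either organ. Jund, the AP-1 subunit that is present without a stimulus, was 260, 336, 700 and 317 CPM in cHCs and 408, 356, 426 and 390 CPM in vHCs. Its groups overlapped, with a log2 fold change of 0.06 ± 0.26 (edgeR adjusted p = 0.89). Egr1 was 24.9, 11.1, 30.9 and 32.0 CPM against 40.0, 30.4, 36.3 and 27.7 CPM, a log2 fold change of -0.58 ± 0.30 (edgeR adjusted p = 0.16).

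Fos was 47.0, 8.88, 51.5 and 9.61 CPM in cHCs and 3.63, 3.19, 21.4 and 7.11 CPM in vHCs, so that the libraries overlapped. Fosb spanned 3.33 to 17.2 CPM and 0 to 4.17 CPM. Zfp36 spanned 4.44 to 19.3 CPM and 0.711 to 3.44 CPM, without overlap, from 15 UMIs in cHCs and 22 in vHCs. Atf3 had no UMI in cHCs, which allows up to 1.61 CPM over the 4 libraries, and 15 UMIs in vHCs.

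When cells were weighted equally, as the mean of each cell's own CPM, Ier2 was 32.3 in cHCs and 4.26 in vHCs, Dusp1 22.0 and 5.53, Jun 120 and 31.4, and Junb 49.0 and 14.7. The order of the organs held for these 4, but the Junb libraries then overlapped. After thinning to 1000 UMIs, a Jun UMI was left in 11.4% of cHCs and 2.44% of vHCs. For Junb these shares were 5.68% and 1.35%, and for Ier2 1.31% and 0.249%. Dusp1 did not keep the order, at 0.437% of cHCs and 0.598% of vHCs, shares that rest on few UMIs. With the IHC cluster alone as the cochlear group, the same 4 of 6 members passed, against 35.5% of all genes, with log2 fold changes from 1.90 for Junb to 3.52 for Ier2. The IHC cluster held 400 ± 235 CPM of the 9 members (n = 4) and the OHC cluster 118 ± 38.8 CPM (n = 3). Cochlea replicate 4 gave 731 CPM in IHCs and is not in the OHC mean, having 8 OHCs. In replicates 1, 3 and 5 IHCs were at 392, 197 and 278 CPM and OHCs at 162, 105 and 87.4 CPM. IHCs gave 531 of the 565 UMIs of the 9 members in cHCs, and their median UMI count was 9051 against 2762 in OHCs. The OHC sum of 87.4 to 162 CPM overlapped that of vHCs, 94.3 to 135 CPM. OHC Jun (21.9 to 58.1 CPM, 11 UMIs), Junb (0 to 30.3 CPM, 4 UMIs) and Dusp1 (0 to 30.3 CPM, 5 UMIs) also overlapped vHCs. OHC Ier2 (11.6 to 21.9 CPM, 4 UMIs) lay above the vHC libraries. OHCs were not tested against vHCs.

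In the cHCs of replicate 4, which were 23 cells of 12261 median UMIs, erythroid markers summed to 12901 CPM, against 3222 CPM over all kept cells of that library. Macrophage markers were at 0 to 1.62% of their all-cell level in cHCs, and 4 to 8 of the 8 markers had no UMI. Granulocyte markers summed to 472 CPM in the cHCs of Cochlea replicate 1, 11.6% of their all-cell level, and to 0 to 13.3 CPM in the other 3 cochlear libraries, against 0.0907 to 0.63% of the all-cell level in vHCs. Replicate 1 is the library in which cHC Dusp1 and Zfp36 were highest, and without it the Dusp1 log2 fold change was 1.77. Supporting cell markers were at 26.3 to 59.6% of their all-cell level in cHCs and at 9.08 to 24.9% in vHCs. The part of these markers in the higher cHC levels was not tested beyond these values. A Jun UMI was found in 41.0% of cHCs and in 7.61% of cochlear erythroid-like cells, at median depths of 5377 and 2944 UMIs. After thinning every cell to 1000 UMIs these shares were 11.4% and 1.02%. The erythroid-like share is not a measure of free RNA, since 51 of the 197 cells formed a cluster led by histone genes, Top2a and Mki67. Only 2 of these cells came from Cochlea replicate 4.

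**Figure D2:**
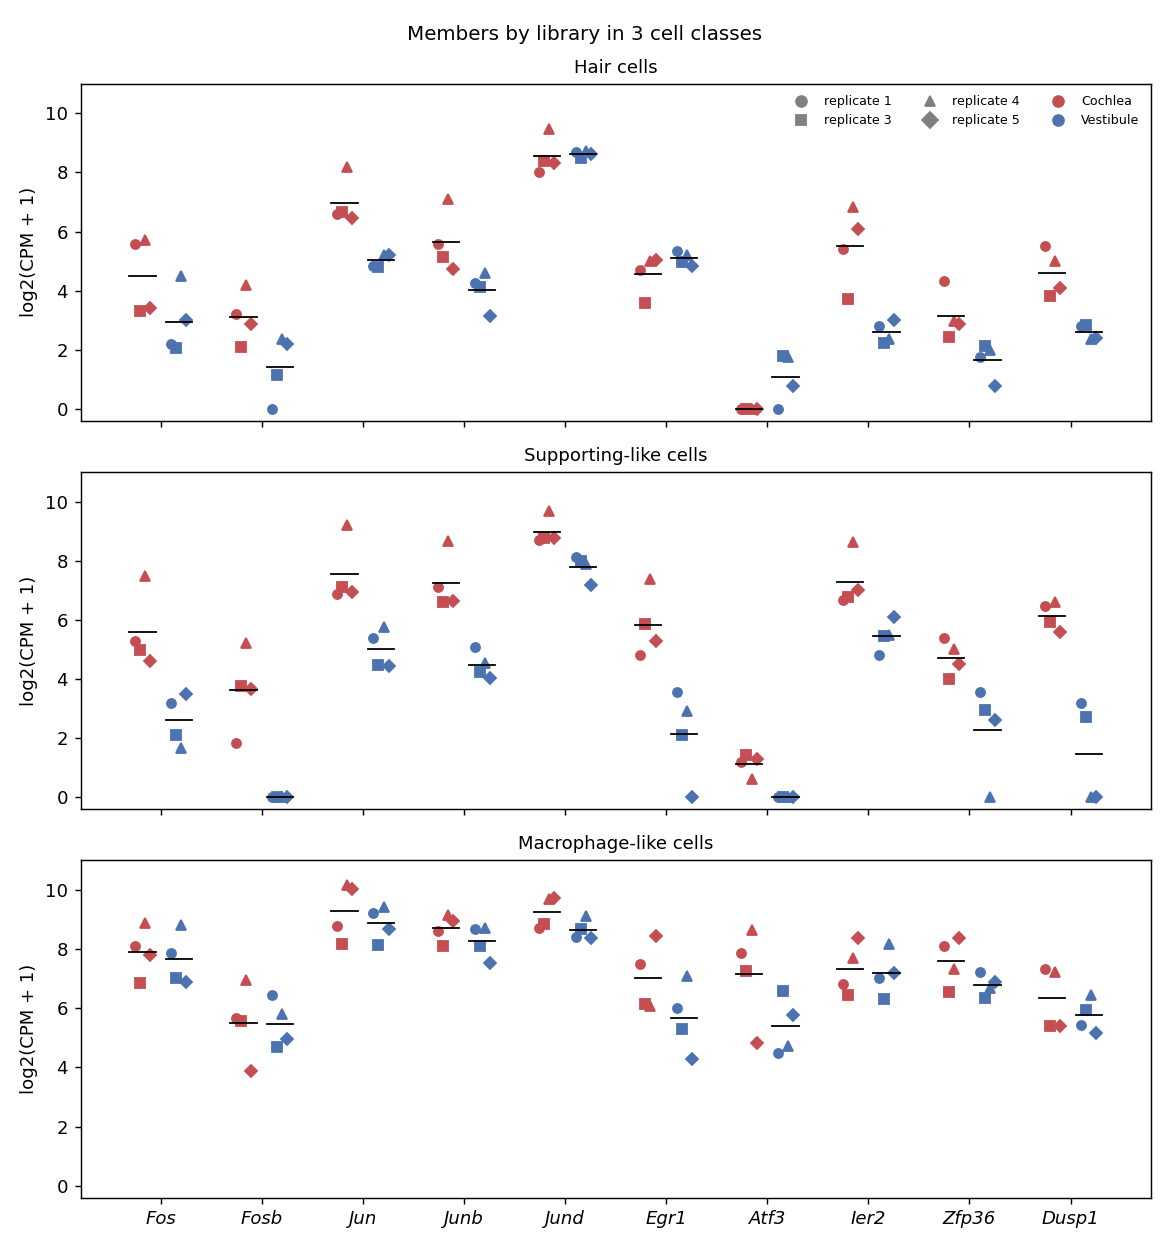
Level of each member on the log2(CPM + 1) scale (y axis) in HCs, supporting-like cells and macrophage-like cells, 1 symbol per library by replicate, cochlea in red and vestibule in blue, with a line at the mean of the transformed values. Ier2 in HCs lies between 12.2 and 113 CPM in the cochlea and below 7.2 in the vestibule, and macrophage-like cells overlap between organs in all 10 members.

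Supporting-like cells were compared between organs in the same way. All 8 members tested rose in the cochlea, 0 fell, and none of the 8 overlapped between organs. Over all genes tested 28.8% did not overlap (10.7% with the cochlea higher), and 30.3% of all genes were called in either direction, 13% higher and 17.3% lower. Without replicate 4 of either organ 8 of 8 still passed, with log2 fold changes from 1.03 for Jund to 3.63 for Dusp1, against 22.5% of all genes. Fos, Egr1, Zfp36 and Dusp1 reached the count minimum in 0 of 4 vestibular libraries, from 9, 10, 11 and 8 UMIs, and entered the test only through the cochlear libraries, so that the direction of these 4 was fixed and their values are a description. Jun, Junb, Jund and Ier2 reached it in all libraries of both organs, and all 4 of these passed.

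Dusp1 was 87.5, 60.1, 95.7 and 47.1 CPM in the cochlea and 8.16, 5.62, 0 and 0 CPM in the vestibule. Its log2 fold change, 4.18 ± 0.45 and 3.63 without replicate 4 of either organ, rested on 8 vestibular UMIs in all, 2 of the 4 vestibular libraries being at 0. Fos was 37.9, 31.0, 177 and 23.2 CPM in the cochlea and 8.16, 3.37, 2.22 and 10.4 CPM in the vestibule (log2 fold change 3.89 ± 0.81, 2.52 without replicate 4). Egr1 was 27.4, 56.8, 167 and 38.4 CPM against 10.9, 3.37, 6.65 and 0 CPM (3.89 ± 0.67, 3.27 without replicate 4).

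Jun was 116, 137, 594 and 123 CPM against 40.8, 21.3, 53.2 and 20.7 CPM, a log2 fold change of 2.94 ± 0.51 (edgeR adjusted p = 0.00015, 2.35 without replicate 4). Junb was 137, 97.5, 405 and 98.5 CPM against 32.7, 17.98, 22.2 and 15.5 CPM (3.17 ± 0.46, edgeR adjusted p = 2.2e-05, 2.44 without replicate 4). Ier2 rose by 2.19 ± 0.42 (edgeR adjusted p = 0.0004) and Zfp36 by 2.20 ± 0.50 on the log2 scale, and by 1.52 and 1.68 without replicate 4. Replicate 4 was highest of the cochlear libraries for 8 of the 10 members. Jund, higher by 1.29 ± 0.25, gained least of the 8. Fosb had no UMI in the vestibule and 154 in the cochlea, at least 10.4-fold higher, with the floor of 3 UMIs taken over the group. Atf3 had 13 UMIs in the cochlea and no UMI in the vestibule.

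The share of cells with several early response UMIs was highest in 1 library. After thinning to 1000 UMIs, 23.3% of supporting-like cells in Cochlea replicate 4 held 3 or more UMIs of the 9 members, against 4.27%, 2.22% and 3.52% in replicates 1, 3 and 5. Unthinned, these shares were 49.5%, 21.4%, 20.5% and 26.4%, at median depths of 4077, 1703, 2633 and 2970 UMIs. In the vestibule 0 of 553 supporting-like cells reached 3 UMIs after thinning. In Cochlea replicate 4, 74.1% of the 27 supporting-like cells with a Fos UMI left after thinning also had a Jun UMI left, against 19.9% of the 256 without one. Hair cell markers were at 34.5 to 65.9% of their all-cell level in the cochlear supporting-like cells and at 25.8 to 43.9% in the vestibular ones. As summed CPM the order was the opposite, at 209 to 255 CPM in the cochlear and 326 to 430 CPM in the vestibular ones. The all-cell level itself was 360 to 606 CPM in the cochlea and 976 to 1328 CPM in the vestibule. The part of these markers was not tested. The cochlear class held 5 clusters, the deepest at 6929 and 7389 median UMIs, and the vestibular class 2. Left unnamed was a vestibular cluster of 273 cells and 11337 median UMIs led by Tectb and Corin. Slitrk6 and Otog were among its leading genes, and 4 hair cell markers were enriched in it. The make-up of the class and the organ therefore cannot be told apart.

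**Figure D3:**
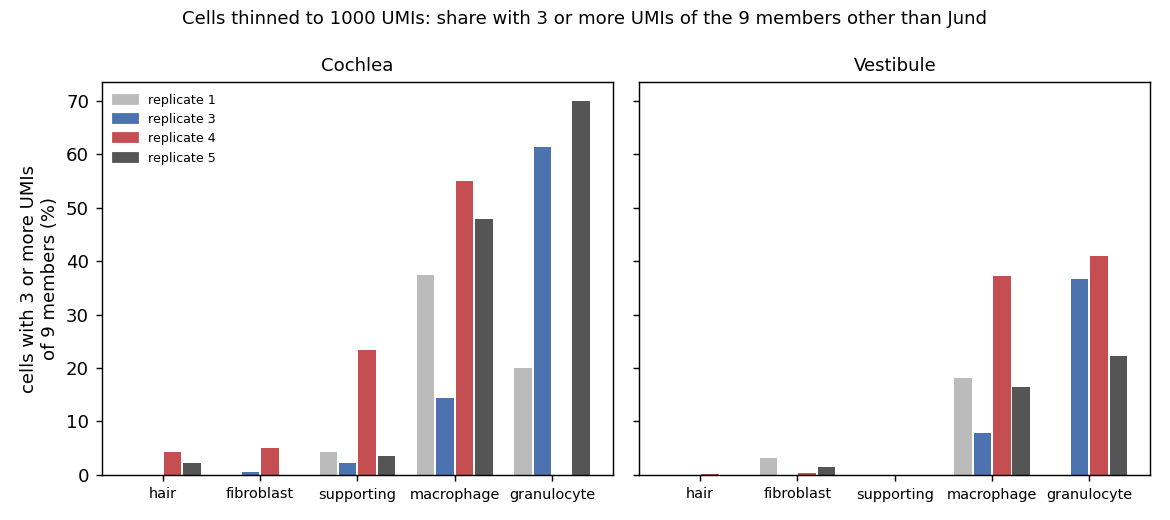
Share of cells with 3 or more UMIs of the 9 members other than Jund (y axis, %) after thinning to 1000 UMIs, by class and replicate, cochlea on the left and vestibule on the right. Bars are shown for classes with at least 10 cells in the library, and a missing bar means fewer cells or a share of 0. Cochlea replicate 4 reaches 23.3% in supporting-like cells.

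Macrophage-like cells did not differ detectably between organs. 0 of the 10 members passed the edgeR test, 0 of them with groups that did not overlap (7.66% of all genes did not), against 1% of all genes called, 0.55% higher and 0.453% lower. Atf3 came nearest, at 233, 150, 395 and 27.6 CPM in the cochlea and 21.4, 95.2, 25.4 and 53.4 CPM in the vestibule (log2 fold change 1.78 ± 0.54, edgeR adjusted p = 0.15). The cochlear class held 2 clusters. That led by Mmp12, Saa3 and Fabp4 had 57 cells (15, 36, 5 and 1 in replicates 1, 3, 4 and 5) and 241 of the 294 Atf3 UMIs, at 412 CPM, and that led by C1qa and Cx3cr1 had 387 cells and Atf3 at 45.8 CPM, against 69.9 CPM in the vestibular cluster. Without the Mmp12 cluster Atf3 and Fosb were too low to be tested and 0 members passed, against 0.957% of all genes. All members tested there were higher in the cochlea on average, with log2 fold changes from 0.62 for Ier2 to 1.85 for Egr1. The lowest edgeR adjusted p was 0.12, for Zfp36. With both clusters in, Atf3 and Zfp36 were the 2 members under an unadjusted threshold of 0.05. The library spread was wide, with Fos from 114 to 470 CPM in the cochlea and 119 to 450 CPM in the vestibule. Vestibule replicate 1 held only 11 of these cells.

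In fibroblast-like cells Egr1 was higher in the cochlea, at 109, 33.2, 38.8 and 53.0 CPM against 10.3, 5.98, 11.5 and 11.1 CPM (log2 fold change 1.96 ± 0.37, no overlap). Egr1 reached the count minimum in 0 of 4 vestibular libraries and so entered only through the cochlea. The class was a different cluster in each organ, led by Scn7a and Ccl11 in the cochlea (Egr1 39.3 CPM) and by Lum and Slco1a4 in the vestibule (8.40 CPM). An unnamed vestibular cluster that shares Ccl11 and Lmntd1 with the cochlear one had Egr1 at 145 CPM, so that the make-up of the class and the organ cannot be told apart. Egr1 was 1 of 4 members tested to rise, against 26.9% of all genes called, 13.7% higher and 13.2% lower. Over all genes tested in this class 27% did not overlap, 19.6% with the cochlea higher. Jund was lower (-0.55 ± 0.21, edgeR adjusted p = 0.041) with overlapping libraries, and this call was lost in 8 of the alternatives. With the replicate number as a block 3 members passed, Junb in addition (0.98, edgeR adjusted p = 0.010). In granulocyte-like, T cell-like and nonsensory epithelial-like cells 0 members passed, with 0.626%, 0% and 4.64% of all genes called. The last share was 2.39% higher and 2.25% lower, and the first was 0.209% higher and 0.417% lower. With the replicate number as a block 2 members passed in granulocyte-like cells, Jun (2.78, edgeR adjusted p = 0.031) and Atf3 (3.34, edgeR adjusted p = 0.0072). Junb rose in erythroid-like cells (log2 fold change 2.50 ± 0.53, 3 libraries against 3), against 6.55% of all genes (4.86% higher and 1.69% lower), and did not pass with DESeq2 (adjusted p = 0.10). Junb reached the count minimum in 0 of 3 vestibular libraries there, and 4 members passed with the replicate number as a block.

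**Figure D4:**
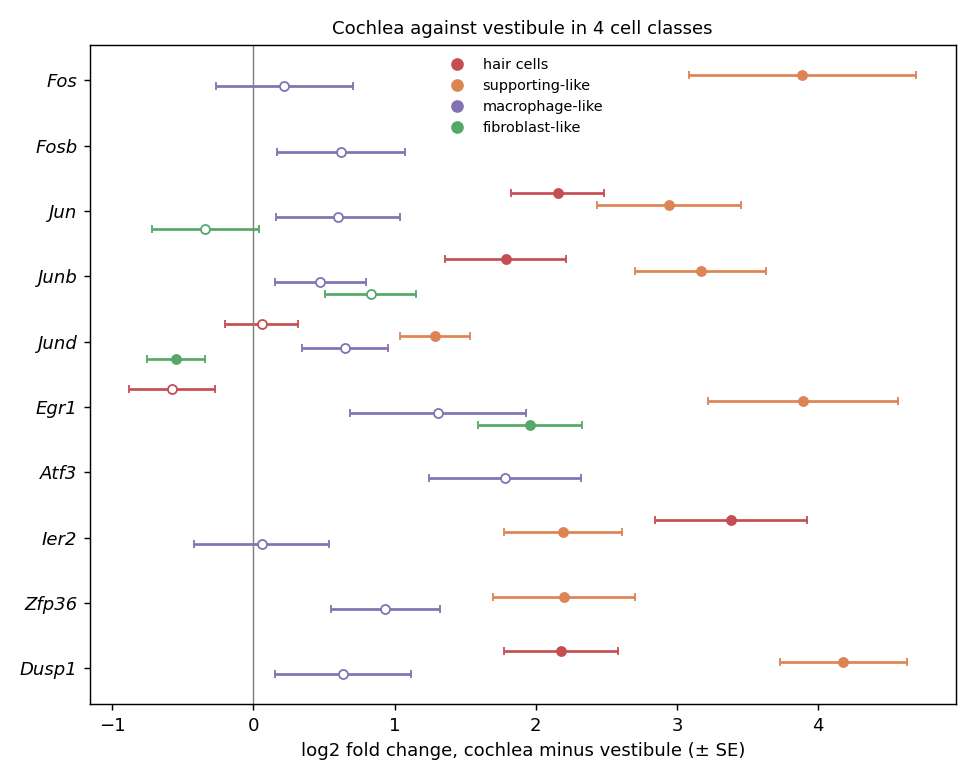
Log2 fold change, cochlea minus vestibule (x axis, points with ± standard error), of the members (y axis) in HCs, supporting-like, macrophage-like and fibroblast-like cells. Filled points passed the adjusted threshold, members too low to be tested are left out, and the 8 supporting-like values all lie above 1.

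Type I and type II vHCs, which differ in shape and innervation, were compared within each library. Jun was lower in type I HCs in 4 of 4 libraries, at 25.7, 22.4, 25.01 and 23.2 CPM against 36.3, 49.9, 93.3 and 78.4 CPM in type II HCs. The log2 fold change, type I minus type II, was -1.35 ± 0.22 (edgeR adjusted p = 1.2e-06), and this was 1 of 5 members tested against 24.3% of all genes, 11.1% higher and 13.2% lower. Junb and Jund were also lower on average (-0.80 and -0.24), but neither passed (edgeR adjusted p = 0.083 and 0.060).

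Against HCs of the same library, macrophage-like cells were higher in all 10 members in the cochlea and in 9 of 10 in the vestibule, beside 52.3% and 67% of all genes called. The shares called higher were 25.8% and 25.7%, and those called lower 26.5% and 41.3%. In the cochlea Zfp36 was 272, 91.8, 160 and 331 CPM in macrophage-like cells and 19.3, 4.44, 6.86 and 6.41 CPM in cHCs (log2 fold change 4.75 ± 0.36). Atf3 had 294 UMIs in macrophage-like cells and none in cHCs, at least 105-fold higher, and at least 28.5-fold higher in the cluster led by C1qa alone. Fosb, Egr1, Atf3 and Zfp36 reached the count minimum in 0 of 4 cHC libraries, and Fosb, Atf3, Ier2, Zfp36 and Dusp1 in 0 of 4 vHC libraries, so that these entered through the macrophage-like sums. The other members, 6 of 6 in the cochlea and 4 of 5 in the vestibule, passed as well. In the vestibule Jund did not pass (0.10 ± 0.20, edgeR adjusted p = 0.67). Egr1 passed (0.81 ± 0.26) but not without Vestibule replicate 4 (0.21, edgeR adjusted p = 0.61).

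Supporting-like cells were higher than HCs in all 9 members tested in the cochlea, with 48.6% of all genes called (25.9% higher and 22.6% lower), and 7 of 9 passed without Cochlea replicate 4, against 45.2% of all genes. In the vestibule 1 of 5 was higher and 2 lower, with 62.8% of all genes called (30.4% higher and 32.4% lower). Ier2 rose by 3.35 ± 0.33 on the log2 scale, from 5.25 ± 1.60 CPM in vHCs to 45.4 ± 16.5 CPM. Egr1 fell by 2.53 on the log2 scale, with 33.6 ± 5.56 CPM in vHCs and 5.23 ± 4.65 CPM in supporting-like cells. Jund was lower by a log2 fold change of -0.63 ± 0.13. Ier2 reached the count minimum in 0 of 4 vHC libraries and Egr1 in 0 of 4 vestibular supporting-like ones, so that each entered through the class where it was high. The difference between macrophage-like cells and HCs was itself unequal between organs for 7 of 10 members, Atf3 among them with 0 UMIs in cHCs, against 9.86% of all genes, 4.87% with a higher and 4.99% with a lower difference in the cochlea.

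**Figure D5:**
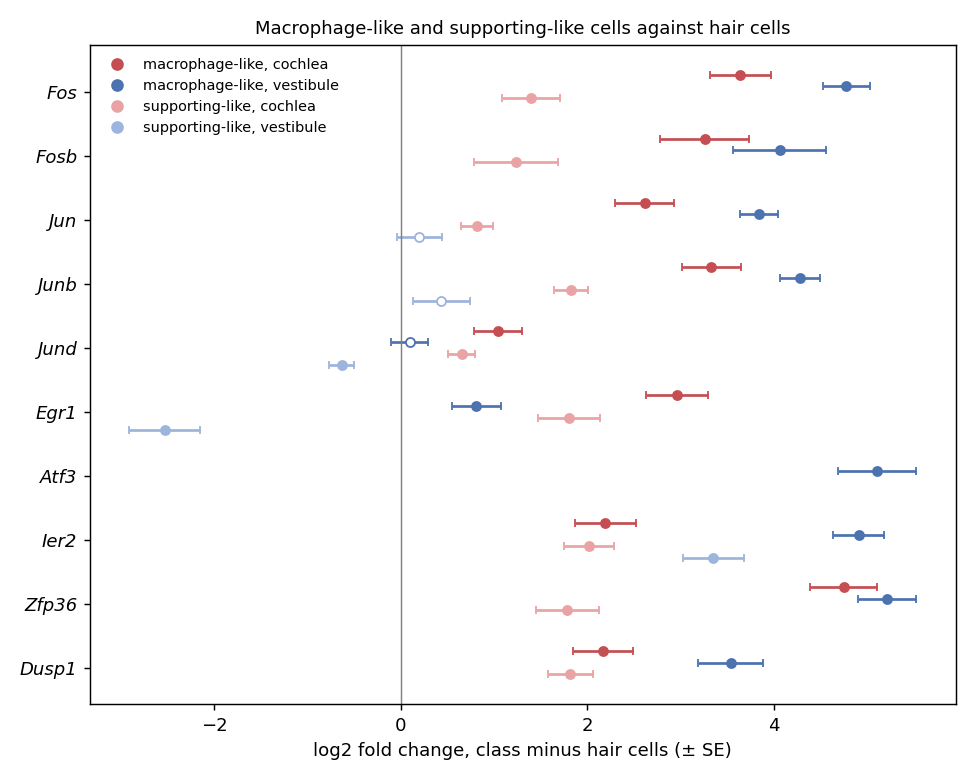
Log2 fold change of macrophage-like and supporting-like cells minus HCs (x axis, points with ± standard error) for each member (y axis), cochlea in red and vestibule in blue. Filled points passed the adjusted threshold, and Atf3 in the cochlea is left out because cHCs held no UMI of it. Egr1 in vestibular supporting-like cells is the lowest value, at -2.53.

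Barcodes set aside for a mitochondrial share of 25% or more were compared with kept cells of the same library. In the cochlea Fos (-2.65), Fosb (-3.16), Junb (-2.96) and Ier2 (-2.64) passed the edgeR test and fell, 4 of 10 members against 2.96% of all genes, 1.58% higher and 1.38% lower. In the vestibule Fos (-2.62) and Junb (-1.55) did, 2 of 10 against 4.4%, 1.77% higher and 2.63% lower. The set-aside barcodes numbered 8, 708, 8 and 61 in the cochlea and 44, 569, 7 and 58 in the vestibule, so that 2 cochlear libraries rested on few barcodes. The cochlear calls fell to 1 without Cochlea replicate 3 or 5, and the vestibular calls to 0 with DESeq2 or without Vestibule replicate 1, 3 or 5. The levels come from all barcodes together, and the mixture of cell types in them was not matched.

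Other genes of the pathway were counted from lists, beside 35.9% of all genes called in HCs (16.8% higher, 19.2% lower). The lists held 17 feedback, 13 upstream, 21 other transcription factor, 11 heat shock and 9 growth arrest and integrated stress response genes. Counts are out of the genes tested, which were fewer. Whether a list gene reached the count minimum in both organs was not examined. In HCs, 4 of 7 tested feedback genes were higher in the cochlea and 0 lower, with Zfp36l1, a relative of Zfp36, at 3.83 ± 0.53 and Btg2, an antiproliferative gene, at 2.14 ± 0.23 on the log2 scale. Of 9 upstream kinases and serum response factor genes tested, 3 were higher (Rps6ka3 1.17 and Map2k1 1.00 the most). Only 3 of the 21 other immediate early transcription factors were tested, and 2 were lower (Klf2 -2.04 and Cebpb -1.46). The heat shock genes had 0 higher and 2 lower of 9 tested (Hsph1 -0.90 and Hsp90ab1 -0.65), and the growth arrest and integrated stress response genes had 1 higher and 1 lower of 4. The median log2 fold change was 0.69 for the feedback genes, -0.14 for the heat shock genes and -0.01 over all genes tested. In supporting-like cells, where 30.3% of all genes were called, 6 of 11 feedback genes were higher and 1 lower, with Spry2 at 2.75 ± 0.66 and Zfp36l2 at -3.43 ± 0.24, and the heat shock genes had 0 higher and 2 lower of 9. There the other immediate early transcription factors had 0 higher and 1 lower of 4, Nr4a1, an orphan nuclear receptor, at -2.94 ± 0.36. The upstream genes had 0 higher and 1 lower of 9, Map2k1, a MAP kinase kinase, at -0.91 ± 0.21, and the growth arrest and integrated stress response genes had 1 higher and 1 lower of 4.

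Over 76 sums of a class in a library, after the class mean of each organ was taken off, each gene's log2 level was correlated with the summed log2 level of the members. A member's own level is part of that sum. Fos (r = 0.76), Egr1 (0.74) and Jun (0.72) ranked 1, 2 and 3 among 12308 genes, while Ier2 (0.31) and Zfp36 (0.20) ranked 1716 and 4366. The 10 other genes with the highest correlation were Arhgap45 (0.64), Trim44, Tnfaip8l2, Cox7b, Armc1, Ncl, Tpi1, Mprip, Tbcb and Strn3 (0.57), none of them in the lists above. Without Cochlea replicate 4, 6 of these 10 were still among the first 10. The sums share libraries and depth, and these values are descriptions.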

How the data were processed

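UMI counts per gene and barcode, made by the authors from reads aligned to mm10 with Cell Ranger (6.1.2 in the submitters' processing notes, while the file headers name 5.0.1 or 6.1.2), were deposited as raw counts of called cells without normalization. Barcodes below 200 detected genes or 1000 UMIs, or with a mitochondrial share of 25% or more, were set aside. Cells of each organ were clustered in Seurat 5.3.0 (R 4.3.3; 2000 variable genes without the members and listed stress genes, 30 principal components, resolution 1, no integration). A cluster was named from at least 3 enriched markers with a lead of 2 over the next class, and no doublet caller was run. UMIs were summed per class and library with at least 10 cells and tested in edgeR 4.0.16 (TMM, filterByExpr, quasi-likelihood, Benjamini-Hochberg over all genes, 0.05), with the library as a block only where both sums came from the same library. DESeq2 1.42.0, other normalization, no filter, a 10% mitochondrial limit, left-out replicates and replicate 2 for replicate 1 were alternatives. The scripts were tested on simulated data. The members and lists were chosen with earlier results of these data known. The genes named are the 10 members, the 10 most alike in pattern, and up to 2 changed genes each way per list. The labels call the replicates biological, and p-values measure the spread between these libraries.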

Additional observations from a re-analysis of the deposited data

Results flagged for a closer look

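Values far from the other 3 libraries of their group, by the ratio of the gap to the range (Dixon's 95% limit for 4 libraries), were found in 15 of 88 groups examined. The groups share libraries, cells and members and are not independent. The 1 in 20 that chance gives for separate groups can therefore not be set against the 15. All but 1 of the 15 values belonged to Cochlea replicate 4. Over all kept cells they were Fos at 312 CPM, Jun at 590, Junb at 744, Jund at 978, Egr1 at 261, Ier2 at 390 and the sum of the 9 members without Jund at 2534 CPM. In supporting-like cells they were Fos at 177 CPM, Jun at 594, Junb at 405, Jund at 810, Ier2 at 397 and the sum of the 9 members without Jund at 1904 CPM. In HCs Jun stood at 292 CPM in replicate 4, and Zfp36 stood at 19.3 CPM in Cochlea replicate 1.

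The difference between macrophage-like cells and HCs differed between organs for 7 members, by the interaction term of edgeR with the library as a block. As the log2 fold change of macrophage-like cells over HCs in the cochlea minus that in the vestibule, it was -1.35 for Fos, -1.46 for Jun, -1.18 for Junb, -2.87 for Ier2, -1.52 for Dusp1, 2.02 for Egr1 and 5.22 for Atf3. The Atf3 value depends on the prior count, since cHCs held no UMI of it.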

How the results depend on the processing

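The counts of members called in HCs (4 to 5) and in supporting-like cells (7 to 9) stayed within 1.5 times the reported counts under every alternative run. These counts include members that reached the count minimum in the cochlea alone. In macrophage-like cells 0 passed without the cochlear cluster led by Mmp12, an alternative added after seeing the data, and 1 member passed, Atf3, with DESeq2, without the filter and without Cochlea replicate 5 (range 0 to 1 over left-out replicates). Fibroblast-like cells gave 1 call with DESeq2 and without the filter (1 to 2 over left-out replicates, 1 without Cochlea replicate 3, Cochlea replicate 4 or Vestibule replicate 5), granulocyte-like cells 1 without the filter (0 to 1, with 1 without Vestibule replicate 3), and erythroid-like cells 0 with DESeq2, 4 without the filter, 2 without replicate 4 of either organ, chosen after the data were seen, and 0 to 2 over left-out replicates (0 without Cochlea replicate 3, 2 without Cochlea replicate 1, Vestibule replicate 3 or Vestibule replicate 4). Type I against type II HCs gave 2 with a 10% mitochondrial limit and 1 to 2 over left-out replicates (2 without Vestibule replicate 1 or 3). The unequal difference of macrophage-like cells and HCs gave 3 calls with DESeq2 and 4 to 7 over left-out replicates, with 4 without Vestibule replicate 3 or 4. Set-aside barcodes in the cochlea gave 7 with DESeq2 size factors, 2 with DESeq2 and 1 to 4 over left-out replicates (1 without Cochlea replicate 3 or 5), and in the vestibule 0 with DESeq2, 1 without the filter, 1 with replicate 2 in place of replicate 1 and 0 to 2 over left-out replicates (0 without Vestibule replicate 1, 3 or 5). The cause was not tested for any of these.

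Same-numbered libraries of the organs correlated at 0.387, 0.304, 0.325 and 0.124 in supporting-like cells and at 0.222, 0.144, 0.304 and 0.0993 in HCs (replicates 1, 3, 4 and 5), each best with its own number. Over all kept cells replicate 5 was at 0.0941 and in macrophage-like cells replicate 1 was at -0.0256. The labels do not say that a number marks a shared batch, and the numbers were not taken as pairs. With the replicate number as a block, 5 calls were made in HCs, 9 in supporting-like, 3 in fibroblast-like, 2 in granulocyte-like, 4 in erythroid-like cells and 0 in macrophage-like, nonsensory epithelial-like and T cell-like cells. Where the library was the block, leaving it out gave 5 calls instead of 9 for cochlear supporting-like cells against HCs, 1 instead of 7 for the unequal macrophage-like difference, 8 and 9 for macrophage-like cells against HCs in the cochlea and vestibule, 3 for vestibular supporting-like cells, 1 for type I against type II and 5 and 2 for set-aside barcodes.

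The sum of all 10 members in vestibular supporting-like cells was 422 CPM with a 10% mitochondrial limit, and in cochlear macrophage-like cells it was 4301 CPM after thinning and 4175 CPM with cells weighted equally, an alternative added after seeing the data. Depth limits the low members most, since cHCs held 15 UMIs of Zfp36 and 13 of Fosb in all.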
